A study of Mus musculus with 2 samples.

Results

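The Mir322 to Mir450b cluster is a run of 7 microRNA (miRNA) genes on the minus strand of the mouse X chromosome: Mir322, Mir503, Mir351, Mir542, Mir450-2, Mir450-1 and Mir450b. The members were taken by name, through their Ensembl identifiers, and are 7 of the 1973 gene rows in each deposited table. Small RNA libraries were made from the single hearts of 2 newborn mice of strain B6NCrl, pup 3 (replicate 2) and pup 2 (replicate 1), both on postnatal day 0 and both listed under pregnant female 1. No treatment or altered allele is given in the labels, sex was not collected, and each heart gave 1 library of total RNA with inserts under 30 nt. The strand of the counts was read from their pattern, as the files name no columns. Replicate 2 held 3487183 sense counts on miRNA genes and replicate 1 held 2323450. There was 1 group and no condition to compare, so the cluster is described by its levels, by the ratios among its members and by the difference between the 2 hearts. The hearts came from separate pups, read as 1 litter from the shared female, and the spread between them includes library preparation.

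miRNAs are short RNAs that pair through bases 2 to 8, the seed, with messenger RNAs and repress them. Genes that lie close together on a strand are often cut from 1 long primary transcript, yet the mature products can accumulate to different levels. The first gene, Mir322, is the mouse counterpart of human miR-424. With Mir503 it belongs to the miR-15 and miR-16 seed family, which represses cyclins and other genes of the cell division cycle, and the pair is known from mouse work on muscle differentiation and early cardiac specification. Mir351 carries the seed of the miR-125 family. Less is known of the products of Mir542, Mir450-1, Mir450-2 and Mir450b in the heart.

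Mir322 (ENSMUSG00000065418) is transcribed first, at position 53054255 to 53054349 of chromosome X on GRCm38 (mm10). Mir503 (ENSMUSG00000076122) follows after 200 nt, at 53053984 to 53054054, and Mir351 (ENSMUSG00000065503) after another 630 nt, at 53053255 to 53053353. These 3 genes lie inside C430049B03Rik, a long non-coding RNA gene that RefSeq places at 53053112 to 53057190. The other 4 lie beyond its annotated end. Mir542 (ENSMUSG00000076140) comes 3767 nt after Mir351, at 53049403 to 53049487, and Mir450-2 (ENSMUSG00000076399) comes 1035 nt after Mir542, at 53048299 to 53048367. Mir450-1 (ENSMUSG00000065486), at 53048154 to 53048244, and Mir450b (ENSMUSG00000076050), at 53047997 to 53048078, close the cluster with gaps of 54 nt and 75 nt. The whole cluster spans 6353 nt, and RefSeq and GENCODE gave all 7 genes the same positions.

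**Figure D1:**
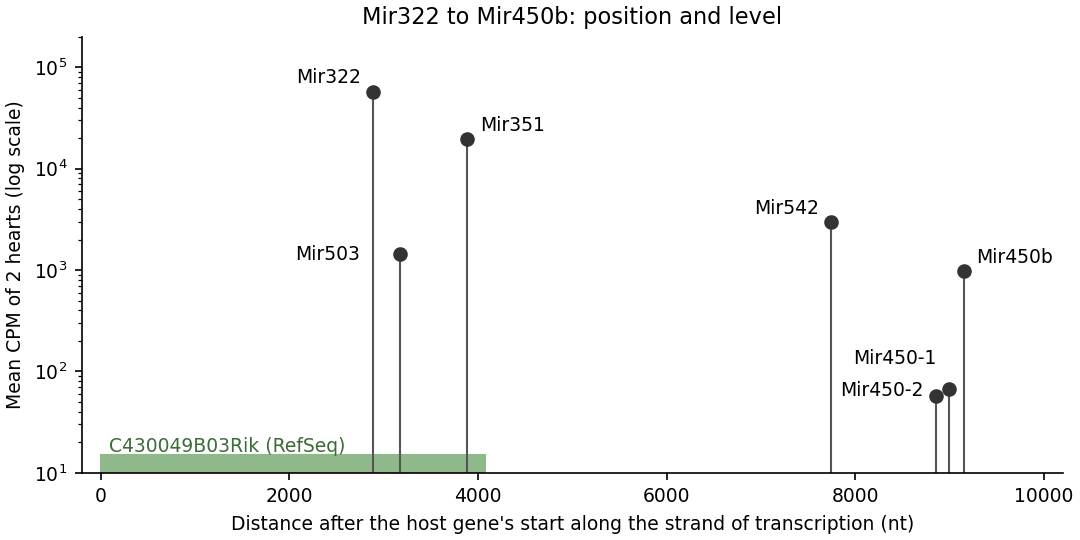
Position of each gene (x axis, nt after the start of C430049B03Rik, in the direction of transcription) against its mean level in the 2 hearts (y axis, CPM, log scale), with the RefSeq extent of C430049B03Rik as a green bar. Level did not follow position: Mir503 stood between Mir322 and Mir351 at 1437 CPM, and Mir450-2 and Mir450-1 stood beside Mir450b at 57.1 and 67.0 CPM. The levels of Mir450-2 and Mir450-1 are uncertain, as reads that fit both genes were given to neither.

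The mature sequences show which members act through the same seed and which cannot be told apart by a read. They are RefSeq's on GRCm38.p6, written 5′ to 3′ with bases 2 to 8 in capitals. The pair of Mir322 and Mir503 comes first:
miR-322-5p: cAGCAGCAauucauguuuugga
miR-503-5p: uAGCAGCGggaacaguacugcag
Bases 2 to 7 are the same in both and base 8 differs. The seed of miR-322-5p is shared in full with miR-15a and miR-16, encoded on other chromosomes:
miR-15a-5p: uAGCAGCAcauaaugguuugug
miR-16-5p: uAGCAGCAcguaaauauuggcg
The seed of miR-351-5p is shared in full with miR-125a and miR-125b:
miR-351-5p: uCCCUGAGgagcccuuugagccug
miR-125a-5p: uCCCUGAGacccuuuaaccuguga
miR-125b-5p: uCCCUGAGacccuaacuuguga
The remaining products have seeds of their own among the 5p and 3p arms shown:
miR-542-3p: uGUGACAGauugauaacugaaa
miR-450a-5p: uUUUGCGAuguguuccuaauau
miR-450b-5p: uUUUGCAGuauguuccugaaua
Mir450-1 and Mir450-2 both encode miR-450a-5p, so a read of it fits 2 genes. Their other arms differ:
miR-450a-1-3p: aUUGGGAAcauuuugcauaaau
miR-450a-2-3p: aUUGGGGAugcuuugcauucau
The seed of the first is also that of the other arm of Mir450b:
miR-450b-3p: aUUGGGAAcauuuugcaugcau

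The precursors of Mir450-1 and Mir450-2 shared a stretch of 25 nt, and no other member shared 20 nt or more with any miRNA gene of the tables. A read with more than 1 alignment was given to no gene, so the counts of Mir450-1 and Mir450-2 are uncertain and can miss reads of miR-450a-5p. The deposited counts are per gene and do not separate the 5p and 3p arms. Sense counts were scaled to counts per 1000000 sense counts on miRNA genes (CPM). They were not divided by gene length, because inserts under 30 nt cover a mature miRNA whole. The yield of reads per molecule can differ between miRNAs and was not determined. Comparisons between genes are therefore of counts, and fewer expressing cells cannot be told apart from less RNA per cell.

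All 7 genes were detected in both hearts, at 2 CPM or more. Together they held 8.05% of sense counts in replicate 2 (95% Clopper-Pearson interval 8.02 to 8.08%) and 8.44% in replicate 1 (8.40 to 8.47%), a mean of 8.24% ± 0.272 (SD, n = 2). All intervals here describe counting error alone: the sources used here name no molecular identifiers, so PCR copies may count as separate reads. The 3 genes inside C430049B03Rik carried 7.84% ± 0.286 and the other 4 carried 0.408% ± 0.0142.

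Mir322 had 201658 counts in replicate 2 and 132847 in replicate 1. That is 57828 and 57177 CPM, or 57502 ± 461 CPM (SD, n = 2), and ranked Mir322 at 6 among all miRNA genes by mean CPM. All ranks leave out reads with several alignments, so genes whose product is encoded at several loci can rank too low. The hearts were almost level, and Mir322 alone supplied 71.8% of the cluster's counts in replicate 2 and 67.8% in replicate 1.

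Mir351, the member with the miR-125 seed, had 59597 counts in replicate 2 and 50556 in replicate 1. It reached 17090 and 21759 CPM, or 19425 ± 3301 CPM (n = 2), and ranked 15. It supplied 21.2% of the cluster in replicate 2 and 25.8% in replicate 1.

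Mir542 had 10651 counts in replicate 2 and 6766 in replicate 1, which is 3054 and 2912 CPM (2983 ± 101, rank 35). Mir503 had 4961 and 3370 counts in replicates 2 and 1, which is 1423 and 1450 CPM (1437 ± 19.7, rank 64). Mir450b had 3467 and 2193 counts, which is 994 and 944 CPM (969 ± 35.6, rank 76). Each of these 3 genes was of the same order in both hearts, and none overlapped another in level.

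Mir450-1 had 241 counts in replicate 2 and 151 in replicate 1, which is 69.1 and 65.0 CPM (67.0 ± 2.91, rank 180). Mir450-2 had 206 and 128 counts, which is 59.1 and 55.1 CPM (57.1 ± 2.82, rank 186). These near copies stood far below the other 5 members in both hearts. All 6 neighbours in the order Mir322, Mir351, Mir542, Mir503, Mir450b, Mir450-1 and Mir450-2 were further apart in mean CPM than the sum of their SDs. For the last pair counting error left the order unresolved: Mir450-2 held 46.1% of their joint counts in replicate 2 (41.4 to 50.8%) and 45.9% in replicate 1 (39.9 to 51.9%).

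**Figure D2:**
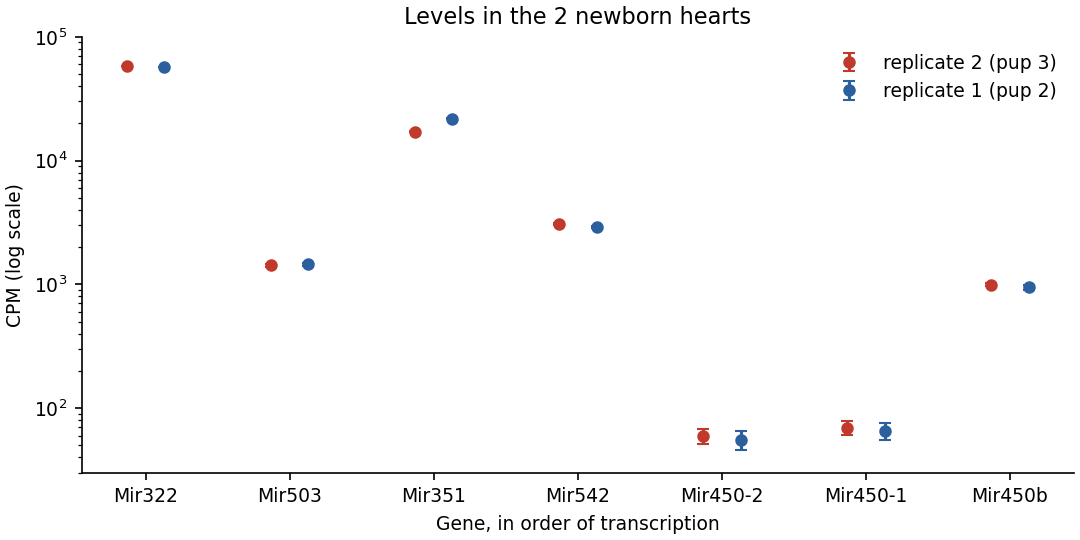
Level of each member (y axis, CPM, log scale) in replicate 2 (red) and replicate 1 (blue), in order of transcription, with 95% Clopper-Pearson intervals of counting error as bars. The points of the 2 hearts lie side by side for each gene, except that Mir351 is lower in replicate 2 (17090 CPM) than in replicate 1 (21759 CPM).

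Levels within the cluster ranged over 1007-fold, from Mir322 down to Mir450-2 (979-fold in replicate 2, 1038-fold in replicate 1). The range rests on Mir450-1 and Mir450-2 at its low end, whose counts are uncertain as described. From Mir322 down to Mir450b, the next member up, the ratio was 58.2-fold in replicate 2 and 60.6-fold in replicate 1. Mir450b shared a stretch of 19 nt with Mir450-1, so its counts may be affected as well.

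Close neighbours could differ widely. Mir503, which lies 200 nt after Mir322 and has the same seed core, was lower than Mir322 by a log2 ratio of -5.32 ± 0.0313 (SD over 2 hearts). That is 40.6-fold in replicate 2 and 39.4-fold in replicate 1. Mir351 over Mir322 had a log2 ratio of -1.58 ± 0.258, the widest SD among the 6 ratios to Mir322. Mir542 over Mir322 had a log2 ratio of -4.27 ± 0.0371, and Mir542 exceeded Mir503 2.15-fold in replicate 2 and 2.01-fold in replicate 1, although it lies beyond the annotated end of the host gene.

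At the far end of the cluster the ratios were close to equal in the 2 hearts. Mir450b exceeded Mir450-1, which lies 75 nt before it, 14.4-fold in replicate 2 and 14.5-fold in replicate 1. Mir450b over Mir542 had a log2 ratio of -1.62 in replicate 2 and -1.63 in replicate 1. Mir450-2 over Mir450-1 had a log2 ratio of -0.23 and -0.24 in replicates 2 and 1. The counts of Mir450-1 and Mir450-2 can miss reads of miR-450a-5p, so the ratios that involve them are uncertain.

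For 6 of the 7 members the hearts differed by at most 1.06-fold, and Mir351 stood apart. Each of the 348 genes with a summed count of at least 10 was compared between replicate 2 and replicate 1. The test was a two-sided exact binomial one at library sizes scaled by TMM, a trimmed mean of ratios, with p-values adjusted by Benjamini-Hochberg and a threshold of 0.05. The test compares 2 libraries at counting error and not 2 conditions. It called 1 of 7 members, Mir351, which was lower in replicate 2, and none as higher. Of all genes tested 27.6% were called, 17.5% as higher and 10.1% as lower in replicate 2. At mean levels of at least 50 CPM, which all 7 members reached, 42.0% were called and 17.1% were lower. The share of members called was below the share of genes called in either direction at both levels, and with 7 members it is no result about the cluster as a set. The median log2 ratio was 0.05 over the members and 0.03 over all genes tested.

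Mir351 was lower in replicate 2 with a log2 ratio of -0.37, or 0.776-fold (0.767 to 0.785 by counting error), and its adjusted p in the exact binomial test was smaller than the arithmetic could represent. Of the 75 genes that averaged at least 1000 CPM, the test called 52, so a call alone was common at this depth. Among the 75, only Mir140 (log2 ratio 0.46) and Mir423 (-0.39) had a larger difference. The coefficient of variation between the 2 hearts (SD over mean, n = 2) was 17.0% for Mir351, against a median of 4.07% over those 75 genes. Mir351 was also called, and lower, with total-count scaling, DESeq2 size factors, no filter, a filter at 100 counts and counts of both strands. Requiring 1.5-fold besides the adjusted p, which 5.75% of all genes tested met, left no member called.

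Mir322 lay at the other end of that order. Its log2 ratio of -0.0007 was the smallest in size of the 75 genes, and its coefficient of variation was 0.801%. It did not pass the test (adjusted p = 0.973, exact binomial test), but at this depth the call turns on the scaling: Mir322 was 1.01-fold higher in replicate 2 when libraries were scaled by total counts and 0.980-fold with DESeq2 size factors, and it passed in both. With TMM computed from genes with at least 100 counts it was 0.974-fold and passed as well. As a share of their joint counts, Mir351 held 22.8% beside Mir322 in replicate 2 (22.7 to 23.0%) and 27.6% in replicate 1 (27.4 to 27.8%), a comparison that needs no scaling.

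The other 5 members did not pass with TMM over the 348 genes, though Mir542 passed with total-count scaling (adjusted p = 0.00896, exact binomial test) and Mir503 with the filter at 100 counts (adjusted p = 0.0305, exact binomial test). Mir542 had a log2 ratio of 0.05 (adjusted p = 0.0725, exact binomial test) and Mir450b 0.06, while Mir503 had -0.04. Mir450-2 and Mir450-1 had 0.08 and 0.07, and their few counts allowed folds from 0.846 to 1.33 and from 0.854 to 1.30. Beside Mir322, Mir542 held 5.02% of joint counts in replicate 2 (4.92 to 5.11%) and 4.85% in replicate 1 (4.73 to 4.96%), and Mir503 held 2.40% (2.34 to 2.47%) and 2.47% (2.39 to 2.56%). For both pairs the intervals of the 2 hearts overlapped, which does not show that the shares were equal. The difference in these shares was not tested.

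**Figure D3:**
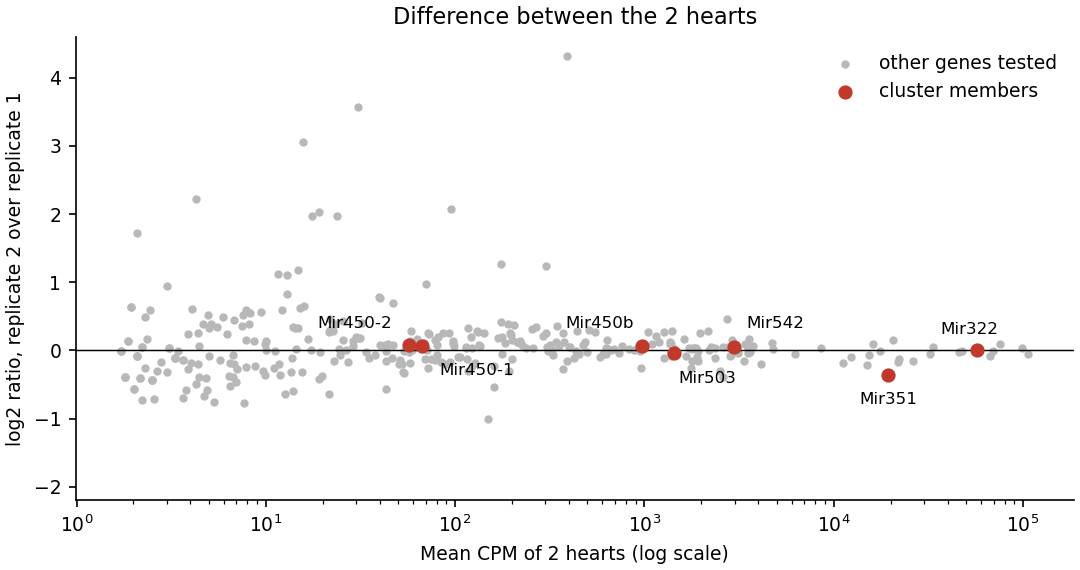
Log2 ratio of replicate 2 over replicate 1 (y axis) against the mean level in the 2 hearts (x axis, CPM, log scale) for the 348 genes tested, with the 7 members in red. Mir351 lies at -0.37, and the other 6 members lie between -0.04 and 0.08.

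The labelled tissue was checked by markers. The 3 miRNAs of cardiac muscle (Mir208a, Mir208b and Mir499) had summed levels of 88930 and 90110 CPM in replicates 2 and 1, the endothelial Mir126a had 105600 and 108100 CPM, and the smooth muscle markers Mir143 and Mir145a summed to 102200 and 98350 CPM. Markers of other tissues were lower but mostly not at 0. Red cell markers (2 of 2 measured) summed to 542 and 627 CPM and white blood cell markers (2 of 3 measured) to 348.4 and 363.3 CPM in replicates 2 and 1. The liver miRNA Mir122 had 47.3 and 53.8 CPM and the skeletal muscle miRNA Mir206 had 16.6 and 26.3 CPM. All 3 loci of the brain miRNA Mir124a were listed at 0, but reads that fit several of these copies would not be counted. Markers of epithelia and endocrine cells (Mir200c, Mir141, Mir205 and Mir375, all measured) had summed levels of 271 and 48.6 CPM in replicates 2 and 1, and the multiciliated cell miRNA Mir449a had 742 and 35.7 CPM. These markers were higher in the heart where Mir351 was lower, and their part in that difference was not tested.

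Products with the same seed can pair with the same sites, and in both seed families the cluster supplied most of the counts assigned to genes. The counts are per gene and do not separate the arms, while the shared seeds are those of the 5p arms. Comparisons in both families are thus between genes and not between the products that carry the seed. Of the 10 other genes whose product has the miR-322-5p seed, 9 had a row and 5 were detected. The most abundant were Mir16-1 (2762 CPM in replicate 2 and 2888 in replicate 1), Mir15a (2417 and 2325), Mir15b (1235 and 1312) and Mir195a (1146 and 1056). Mir322 and Mir503 together had 59251 CPM in replicate 2 and 58627 in replicate 1, against 8208 and 8215 CPM for all detected relatives, a log2 ratio of 2.84 ± 0.0116 (SD over 2 hearts) or 7.18-fold. Mir503 alone was below Mir16-1 and Mir15a and above Mir15b in both hearts. miR-16-5p is encoded at 2 loci, so reads of it that fit both were assigned to neither, and Mir497 was not analysed here. The sum of the relatives can thus be too low and the ratio too high, and the ratio is uncertain.

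The miR-351-5p seed was carried by 5 other genes, of which Mir125a, Mir125b-1 and Mir125b-2 were detected. Mir125a had 2270 CPM in replicate 2 and 2428 in replicate 1, Mir125b-2 had 672 and 595 CPM, and Mir125b-1 had 192 and 207 CPM. Mir351 exceeded their sum 5.45-fold in replicate 2 and 6.73-fold in replicate 1, a log2 ratio of 2.60 ± 0.216. It held 84.5% of the counts of the 4 genes in replicate 2 (84.2 to 84.8%) and 87.1% in replicate 1 (86.8 to 87.3%). miR-125b-5p is encoded at 2 loci, and its counts are uncertain and can be too low, like those of miR-16-5p. The ratios and shares of Mir351 can thus be too high, and they cover both arms of each gene. The sum of the 3 relatives was 3135 CPM for replicate 2 and 3231 for replicate 1.

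**Figure D4:**
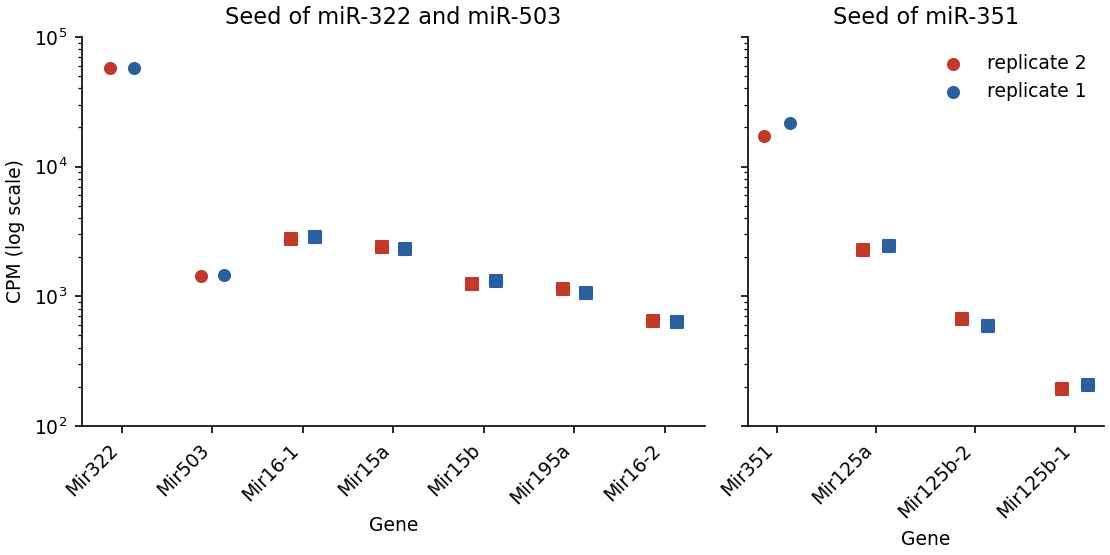
Levels (y axis, CPM, log scale) of genes that share the seed of miR-322-5p in bases 2 to 7 (left) and that of miR-351-5p (right), for replicate 2 (red) and replicate 1 (blue), with cluster members as circles and relatives on other chromosomes as squares. As counted, Mir322 and Mir351 lie above all their relatives in both hearts, and Mir503 (1437 CPM) lies among them. Relatives whose product is encoded at several loci can be counted too low.

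The cluster carried most of the X chromosome's miRNA counts. It held 79.2% of them in replicate 2 (79.1 to 79.4%) and 80.0% in replicate 1 (79.8 to 80.1%), a mean of 79.6% ± 0.518. Reads with several alignments are left out, so products encoded at several loci can be undercounted. The share is uncertain to that extent. All X-linked miRNA genes together held 10.2% of sense counts in replicate 2 and 10.6% in replicate 1. Besides the 7 members, 27 of 113 X-linked genes were detected in both hearts. The most abundant were Mir652 (6128 CPM in replicate 2 and 6305 in replicate 1), Mir98 of the let-7 family (3093 and 3132), Mir532 (2799 and 2908) and Mirlet7f-2 (2216 and 2185). Of 28 other X-linked genes tested, 2 were higher and 2 lower in replicate 2, with a median log2 ratio of 0.02.

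Among genomic clusters with 3 or more detected genes, the run from Mir322 to Mir450b had the largest summed level as counted. Neighbouring miRNA genes on a strand were joined where they lay within 10 kb, which gave 13 such clusters. The cluster summed to 80518 CPM in replicate 2 and 84362 in replicate 1. Next came those of Mir23a (26170 and 28571 CPM), Mir17 (14561 and 14075) and Mir411 (14491 and 12394). With clusters of 2 detected genes included, it ranked 2 of 43, below the pair of Mir143 and Mir145a (102229 CPM in replicate 2 and 98349 in replicate 1), miRNAs known from smooth muscle. The sums leave out reads with several alignments, so those of clusters with products encoded at several loci can be too low. That holds, among others, for the Mir23a cluster (Mir24-2), the Mir17 cluster (Mir19b-1 and Mir92-1), the Mir99a pair (Mirlet7c-1) and the Mir30e pair (Mir30c-1). It also holds for the Mir322 cluster itself (Mir450-1 and Mir450-2), and the order of the sums is uncertain to that extent. Its 1007-fold range ranked 2 of 13, below the 1661-fold range of the Mir17 cluster and above the 407-fold range of the Mir411 cluster. The lowest genes of the first 2 of these ranges, Mir450-2 and Mir19b-1, share a product with another locus, and their counts are uncertain. Differences between the hearts covered 0.45 on the log2 scale within the cluster, which ranked 7 of 13 and equalled the median of the 13. Of the 3 clusters next in level, those of Mir17 and Mir411 had a wider range (0.66 and 1.00) and that of Mir23a a narrower one (0.19).

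**Figure D5:**
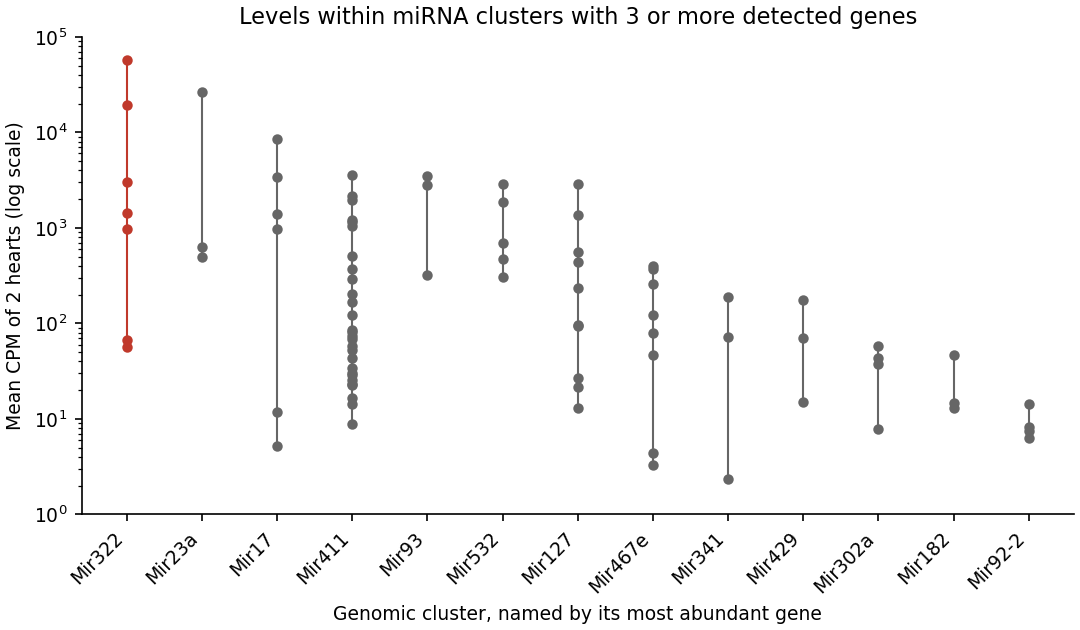
Mean level in the 2 hearts (y axis, CPM, log scale) of each detected gene in the 13 genomic clusters, ordered by summed level and named by their most abundant gene, with lines from the lowest to the highest gene. The Mir322 cluster (red) holds 7 genes between 57.1 and 57502 CPM.

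In the order of all genes as counted, Mir322 stood between Mir99a (66780 ± 2192 CPM) and Mirlet7g (47786 ± 205 CPM), beyond the spread of both. Mir351 stood between Mir21a (20582 ± 1761 CPM) and Mir30a (17677 ± 5.58 CPM) and did not differ from either beyond the summed SDs. Mir542 stood below Mir98 (3113 ± 27.5 CPM), by 129 CPM against summed SDs of 128 CPM, and did not differ beyond the spread from Mir127 (2889 ± 242 CPM).

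No read was counted on the opposite strand of any of the 7 members in either heart, where 93.7% of the 348 genes tested had none. The limit that a count of 0 sets (3 counts) was 0.860 CPM for replicate 2 and 1.29 for replicate 1.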

How the data were processed

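Small RNA was sequenced from 2 hearts. The authors deposited raw read counts for each miRNA gene in 3 unnamed columns. These were read as both strands, sense and opposite from the values: the first is the sum of the others, and the second holds most counts. Assembly mm10 and GENCODE M4 are named in the deposited description of each library. The aligner and counter are not given in the sources used here. Of all reads, 37.1% in replicate 2 and 36.6% in replicate 1 had more than 1 alignment and were given to no gene, 10.5% and 11.5% were unmapped, and 5.62% and 5.93% lay on no feature. The 4 summary rows stayed out of library sizes and tests.

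Sense counts were used. Identifiers were matched to GENCODE M21 (GRCm38, the assembly of mm10), for 1894 of 1973 genes. The 79 others had 0 counts. The 7 members all matched and all passed the filter. RefSeq (GRCm38.p6) gave the mature sequences, for 7 of 7 members, and the host gene. CPM used the sense total on genes. TMM factors came from edgeR 4.0.16 and size factors, as an alternative, from DESeq2 1.42.0. Tests and intervals used scipy 1.17.1. With 1 group, no quasi-likelihood test between conditions could be made. Log2 ratios between hearts used a pseudocount of 1 CPM. Ratios between members in the text have no pseudocount. Data were simulated with counting error alone and scaled by total counts (354 genes tested). There the exact test called 100% of 59 genes changed 1.5-fold with a mean of 50 CPM or more, and 2.41% of 83 unchanged ones. These shares do not cover the wider spread between the real libraries. The libraries were counted as 2 samples because the labels name 2 pups. A chi-square of 33.0 per degree of freedom set them apart beyond sampling noise, which alone cannot tell 2 hearts from 2 preparations of 1 heart. The members and lists were chosen with earlier results of these data known. All 7 members are named; of relatives and X-linked genes up to 4 of the most abundant are, of genes nearest in level those beside the 3 most abundant members, and of clusters the 3 nearest in summed level. Mir140, Mir423, the pair of Mir143 and Mir145a, and the pairs of Mir99a and of Mir30e were named after their values were seen.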

Additional observations from a re-analysis of the deposited data

How the results depend on the processing

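Of 114 values recomputed under alternative settings for 29 results, 91 kept their direction and their side of the threshold or stayed within the spread of the hearts. Most of the others were levels, which fell with a larger denominator: the cluster's share was 3.83% of all reads and 7.70% of the counts of both strands. Scaling by total counts raised the members called between the libraries to 3 (Mir322, Mir351 and Mir542), DESeq2 size factors gave 2 (Mir322 and Mir351), and a filter at a sum of 100 counts, with TMM computed anew, gave 3 (Mir322, Mir503 and Mir351). Requiring 1.5-fold as well left 0 members called, against 5.75% of all genes tested. With total counts Mir322 turned to a log2 ratio of 0.016. Mir351 was called in all 20 draws that thinned the deeper library. The cluster's rank by summed level, 1 of 13, was 2 of 43 with clusters of 2 detected genes included, a setting chosen after seeing the data. With 2 hearts, leaving 1 out gives the value of the other, which lies within 1 SD of their mean by construction, and the SD itself is poorly determined. Ratios among members could hardly move with both strands counted, as no member had opposite counts. The other detection limits lay far below all members and could not change which were detected. The 91 include such values, so their number is no measure of robustness. No paired analysis was possible because there is 1 group.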
